A study of Homo sapiens with 12 samples.

Results

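The H3K4me1 peak list of HepG2 cells held 182592 peaks on chromosomes 1 to 22 and X, of 273822 peaks in the 3 deposited lists of the series, and each of them was included. HepG2 is an established human cell line derived from a hepatocellular carcinoma, grown here without treatment. The assay was ChIP-seq, which sequences the DNA that an antibody to a histone mark pulls down, and it was done on 300 ng of sheared DNA per library with paired reads of 51 bp. The groups used here were the 3 H3K4me1 libraries and the 3 control libraries, and the H3K27ac and H3K4me3 lists (66513 and 24446 peaks, 3 libraries each) served only to show what lay near H3K4me1 peaks. The titles call the controls input, but their antibody label is anti-mouse IgG, and which they were is not settled by the labels. All groups were the same untreated line, and the libraries of a mark were pooled into 1 list.

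H3K4me1 is the methylation of lysine 4 of histone H3 with a single methyl group. It is placed mainly by the enzymes KMT2C and KMT2D and is found at enhancers, both those in use and those held ready, and in the flanks of promoters. H3K4me3, the form with more methyl groups on the same lysine, marks promoters, and H3K27ac, an acetylation placed by EP300 and CREBBP, marks promoters and enhancers in use. A peak is a stretch called as enriched, its summit the position of strongest enrichment within it, and its signal value the enrichment the peak caller gave it.

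Each value below describes 1 pooled list, so no difference could be tested against the spread between cultures, and no p-value is given. Standard deviations (SD) are over the 23 chromosomes, which are parts of one genome and not replicates. The intervals (95%, Wilson) reflect counting error alone and take neighbouring peaks as independent. Positions are on hg19, counted from 1, and genes and DNA sequences at them were not analysed here. The list was deep into weak enrichment: the lowest −log10 p-value was 2.00, 1433 peaks lay below 3 on that scale, and 224 peaks had a q-value above 0.05.

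Most H3K4me1 peaks were short, and a small number of wide ones held much of the marked length. The narrowest width was 297 bp, shared by 5769 peaks (3.16%), and the widest peak had 27481 bp. The lower and upper quartiles of width were 424 and 1284 bp around a median of 696 bp, with 10% of peaks at 2222 bp or more. Among the stronger 50% of peaks by signal value the median width was 1218 bp. The widest 19.4% of peaks (35428) held 50% of the 196.4 Mb covered. For comparison, the upper quartile was 1834 bp in the H3K27ac list and 2658 bp in the H3K4me3 list, so that wide peaks were a smaller share of the H3K4me1 list. By chromosome the median width ran from 580 bp on X to 816.5 bp on chromosome 20, with an SD of 62.1 bp.

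Wider H3K4me1 peaks were also stronger and more often acetylated. Peaks at the narrowest width had a median signal value of 2.47, those of 1000 to 1499 bp 4.29, and those of 4000 bp and over 8.03. Width and signal value were correlated across peaks (Spearman's rho 0.76 over 182592 peaks, which share the same libraries and the same caller). To compare peaks without giving wide ones more room to overlap, only the base of the summit was used. The share of summits inside an H3K27ac peak was 7.51% at the narrowest width, 32.3% at 1000 to 1499 bp and 80.8% at 4000 bp and over. The share inside an H3K4me3 peak changed less, from 4.09% at the narrowest width to 15.4% at 1000 to 1499 bp and 14.7% at 4000 bp and over. In the widest 1% (1826 peaks of 5580 bp or more), 63.9% of the bases were also covered by H3K27ac and 10.8% by H3K4me3. Of these peaks, 95.5% overlapped an H3K27ac peak somewhere along their length and 55.1% an H3K4me3 peak.

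The 3 widest peaks differed in how far the other marks filled them. The peak on chromosome 11 from 2738177 to 2765657 (27481 bp, signal value 11.2) was covered by H3K27ac over 38.2% of its length and met 3 H3K4me3 peaks. The peak on chromosome 16 from 87871404 to 87897517 (26114 bp, signal value 15.0) lay almost wholly inside 1 H3K27ac peak, which covered 99.9% of it, and H3K4me3 covered 36.9%. The peak on chromosome 9 from 38022158 to 38047795 (25638 bp, signal value 10.0) met 9 H3K27ac peaks that covered 84.4% of it, and 2 H3K4me3 peaks that covered 3.17%. Its summit stood near its right end, at 0.96 of its width, while those of the other two stood at 0.47 and 0.42.

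Part of the H3K4me1 signal values lay on even steps. Of all peaks, 14570 (7.98%) had a signal value that was a whole multiple of 0.162154 to within 0.0001. For evenly spread values this tolerance would take in 0.123%. The step was itself set from the most common signal values of this list, so a share above that was partly fixed in advance. The most common value, 2.92, was 18 such steps and was shared by 1584 peaks. Peaks on steps were slightly weaker, with a median signal value of 3.24 beside 3.46 for the others, and had a median width of 458 bp.

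One peak stood apart by p-value. On chromosome 17 from 41399854 to 41401195 (1342 bp) the −log10 p-value was 710.0, against 277.3 for the second highest peak of the list, on chromosome 16 from 21517434 to 21526454. Its signal value of 5.25 ranked only 32823 in the list. Among the 9517 peaks within 5% of that signal value the median −log10 p-value was 22.9 and the second highest 68.9. H3K4me3 covered 31.7% of that peak and H3K27ac 33.6%.

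**Figure D1:**
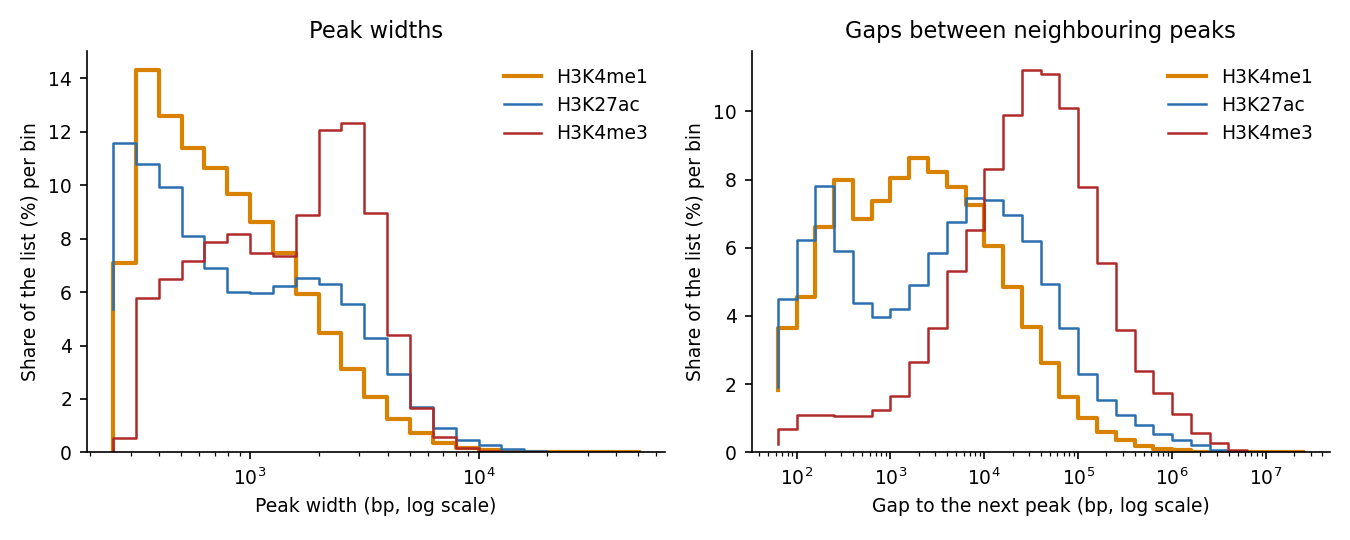
Widths of peaks (left) and gaps between neighbouring peaks (right) in the 3 pooled lists, both on a log axis, as the share of each list per bin. H3K4me1 widths fall off from the narrow end, and on this log scale the gaps of H3K4me1 and H3K27ac each show 2 humps, for H3K4me1 at 251 to 398 bp and at 1585 to 2512 bp, while the main hump of H3K4me3 lies at much longer gaps.

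Neighbouring H3K4me1 peaks were often close together. A gap is the unmarked stretch between the end of a peak and the start of the next. The 182569 gaps had a median of 1867 bp, with quartiles of 409 and 7868 bp. Spacing depended on how many weak peaks were kept: the median gap was 2872 bp among the 125359 peaks with a −log10 q-value of 5 or more and 4516 bp among the stronger 50% of peaks by signal value. The shortest gap was 51 bp, the length of a read, and 304 gaps had exactly that length, so peaks closer than a read length were never listed apart. The share of gaps of 1 kb or less was 38.8% (95% interval 38.6 to 39.1, SD 2.15), beside 34.7% in the H3K27ac list and 6.53% in the H3K4me3 list. These lists held 60.1, 21.9 and 8.05 peaks per Mb. Among the H3K4me1 peaks at or above 5 in −log10 q-value the share was 31.2%, below that of the whole H3K27ac list. In equal steps of 50 bp the shortest gaps were the most frequent and the counts fell at each step up to 600 bp: 10117 gaps had 51 to 100 bp, 7094 had 101 to 150 bp, 5837 had 251 to 300 bp, 5188 had 301 to 350 bp, 3853 had 351 to 400 bp and 2433 had 551 to 600 bp. In bins of equal width on a log scale, which grow with the gap, the shares had 2 maxima, 8.00% at 251 to 398 bp and 8.64% at 1585 to 2512 bp, with 6.84% at 398 to 631 bp between them. The H3K27ac list had maxima further apart, 7.83% at 158 to 251 bp and 7.47% at 6310 to 10000 bp, with a low of 3.98% at 631 to 1000 bp.

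Short gaps followed each other more often than long gaps were followed by short ones. After a gap of 1 kb or less, the next gap was also that short in 43.6% of cases (43.2 to 44.0), and after a longer gap in 35.8% (35.5 to 36.1). The signal values of neighbours were weakly correlated in each of 7 distance classes, with Spearman's rho 0.14 over 10117 pairs at 51 to 100 bp and 0.02 over 4355 pairs over 100 kb apart.

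What lay in a gap depended on its length. Gaps of 51 to 100 bp held an H3K4me3 summit in 0.346% of cases (0.249 to 0.481). The share was 3.89% at 301 to 500 bp, 12.9% at 751 to 1000 bp and highest at 1501 to 2000 bp, with 21.3% (20.5 to 22.1, SD 3.17, range over chromosomes 15.9 to 29.3%). It was 7.50% at 3001 to 5000 bp and 3.78% at 5001 to 10000 bp. Longer gaps have more room for a summit, so the density is needed as well. H3K4me3 summits were 14.9 per 100 kb of gap at 501 to 750 bp, 15.3 at 1001 to 1500 bp and 0.554 at 5001 to 10000 bp, against 0.805 per 100 kb over the whole of these chromosomes. The share was thus highest at 1501 to 2000 bp and the density from 501 to 1500 bp.

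The share of gaps with an H3K27ac summit was also highest at 1501 to 2000 bp. H3K27ac summits lay in 0.514% of gaps of 51 to 100 bp, in 23.4% (22.5 to 24.2) of those of 1501 to 2000 bp and in 7.59% of those of 5001 to 10000 bp, where H3K4me3 summits lay in 3.78%. In gaps over 100 kb the order was the other way round, with 9.76% for H3K27ac and 13.9% for H3K4me3. The shortest gaps were nevertheless often acetylated: H3K27ac peaks covered a mean of 24.1% of gaps of 51 to 100 bp and 25.7% of those of 101 to 200 bp, with their summits elsewhere. Only 4.28% of all gaps of 1 kb or less (3032 of 70887) held an H3K4me3 summit and another 2.34% an H3K27ac summit without one. The remaining 93.4% held neither summit.

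Seen from the other lists, the gaps of 301 to 3000 bp were where many of the H3K4me3 summits lay. These gaps made up 86.8 Mb or 2.86% of the genome and held 9637 (39.4%) of the 24446 H3K4me3 summits. A further 9923 (40.6%) lay inside an H3K4me1 peak. Gaps up to 300 bp held 309 (1.26%), and gaps over 5 kb held 3297 (13.5%). H3K27ac summits were distributed differently, with 45677 (68.7%) inside an H3K4me1 peak and 11568 (17.4%) in gaps of 301 to 3000 bp.

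**Figure D2:**
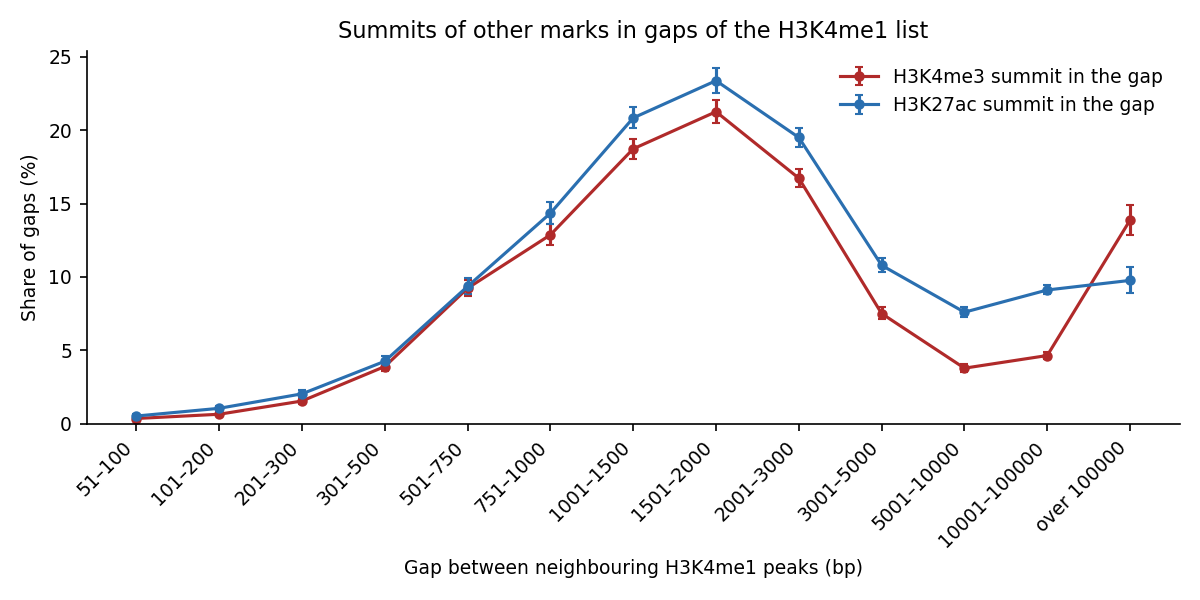
Share of gaps between neighbouring H3K4me1 peaks that hold a summit of H3K4me3 or H3K27ac, by gap length in bp. Error bars are 95% Wilson intervals. Both curves are highest at 1501 to 2000 bp, at 21.3% and 23.4%, and are at most 1.04% for gaps up to 200 bp. In gaps over 100 kb, which are far longer, the shares are 13.9% and 9.76%.

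The position of the summit within a peak depended on the width of the peak. Relative position was the offset of the summit from the peak start divided by the width, so that 0.5 is the centre. Over all peaks the median was 0.497, with quartiles of 0.364 and 0.629. The central 33.3% of the peak held 60.6% of the summits (60.4 to 60.8, SD 0.862), close to the 61.0% of the H3K27ac list and below the 77.9% of the H3K4me3 list. Summits left of the centre were 50.5% of those off the centre, and only 1 summit was at the first base of its peak.

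The central position was most frequent in peaks of 298 to 699 bp. At the narrowest width, 297 bp, 58.6% of summits lay in that central stretch. In peaks of 298 to 499 bp the share was 74.9%, in those of 500 to 699 bp 71.7%, and in those of 700 to 999 bp 48.2%. In peaks of 700 to 999 bp the summits were less frequent at the centre than on either side of it: the central 20% of the peak held 23.7% of them, while 35.4% lay between 0.2 and 0.4 of the width and 34.4% between 0.6 and 0.8. At 1000 to 1499 bp there were 3 maxima: the stretches from 0.2 to 0.3 and from 0.7 to 0.8 of the width held 16.1% each, those from 0.4 to 0.5 and from 0.5 to 0.6 held 14.4% each, and those between, from 0.3 to 0.4 and from 0.6 to 0.7, held 12.9% and 13.3%. In peaks of 1500 bp and over the distribution was broad and highest at the centre, with 15.7% between 0.4 and 0.5 for peaks of 1500 to 1999 bp.

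Measured in bp, these side summits stood at a fixed distance from the edge. In peaks of 700 to 999 bp, 9523 summits lay within the 50 bp just short of 297 bp from the nearer edge, and 3157 within the 50 bp just beyond. The corresponding numbers were 5244 and 2181 at 1000 to 1499 bp and 1304 and 687 at 1500 to 1999 bp. At 4000 bp and over they were 51 and 46. With steps of 20 bp, over the 62658 peaks of 1000 bp or more, 3504 summits lay just short of that distance and 1042 just beyond, a ratio of 3.36. The distance equals the narrowest width in the list. Around the narrowest widths of the other lists, 232 and 312 bp, the ratios were 1.49 for H3K27ac and 1.41 for H3K4me3. How the caller extended the reads is not stated, and its part in the pattern was not tested.

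**Figure D3:**
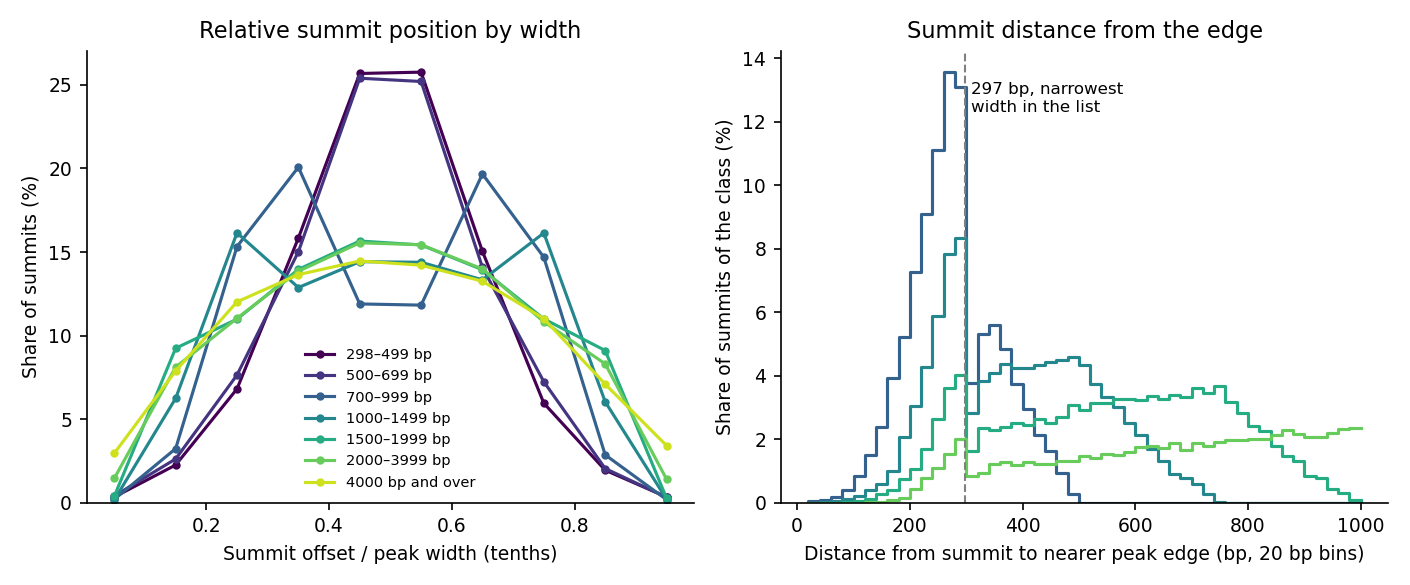
Left, share of H3K4me1 summits per 0.1 of the peak width, by width class. Right, share of summits by distance to the nearer edge of the peak, for the 4 classes from 700 to 3999 bp, with the narrowest peak width (297 bp) as a dashed line. Summits of peaks of 700 to 999 bp are less frequent at the centre than beside it, and in each class shown on the right the share drops at the dashed line.

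Over all widths, summits leaned slightly toward the nearer neighbour at gaps of 101 to 5000 bp. Of 110613 peaks with a neighbour within 1 kb and a summit off the centre, 53.4% (53.1 to 53.7) had it on the side of the nearer neighbour. The share was over 50% on 23 of 23 chromosomes, with a range of 52.2 to 54.7%. It went with width. Peaks of 500 bp or more leaned toward the neighbour in 55.3% of cases, whereas narrower ones did so in 49.2%. At gaps of 51 to 100 bp the narrower ones leaned away, with 42.8% (41.6 to 44.1) toward the neighbour, beside 53.6% of the wider ones. The narrower ones also leaned away at 101 to 200 bp, with 45.03% (43.9 to 46.2) toward the neighbour, beside 58.03% of the wider ones. At 201 to 400 bp the narrower ones leaned toward the neighbour, with 53.87%. Over all widths the share was 50.2% (49.5 to 50.9) at 51 to 100 bp and 55.1% at 201 to 400 bp. It was 52.4% at 701 to 1000 bp, 53.9% at 1001 to 2000 bp and 51.9% at 2001 to 5000 bp. With the nearer neighbour 5 to 100 kb away the share over all widths was 49.97% (49.4 to 50.6). A nearer neighbour can itself have a closer peak on its other side, so these leans need not be mutual. Scored over both peaks flanking each gap, the share on the gap side was 55.6% at 201 to 300 bp. It was 49.9% (49.3 to 50.5) at 2001 to 3000 bp and 47.2% (46.7 to 47.8) at 3001 to 5000 bp.

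The lean was larger toward H3K4me3. For H3K4me1 peaks with no H3K4me3 summit inside, the nearest one outside was located. Where it lay 1 to 500 bp from the edge, 69.2% (68.3 to 70.0, SD 3.31) of 10678 H3K4me1 summits were on the side facing it. The share was 66.7% at 501 to 1000 bp, 57.2% at 1001 to 2000 bp, 51.7% at 2001 to 5000 bp and 49.98% at 5001 to 20000 bp. Up to 2000 bp it was over 50% on each of the 23 chromosomes in each of these distance classes. The stronger and weaker 50% of the H3K4me3 list by signal value were then each taken alone. An H3K4me1 peak could thus also hold, or lie nearer to, a summit of the other 50%. The lean differed between these parts at some distances only. Within 500 bp the share was 68.2% (SD 4.00) with the stronger 50% of H3K4me3 peaks by signal value and 69.5% (SD 4.52) with the weaker 50%. At 501 to 1000 bp it was 67.5% and 62.1%, and at 1001 to 2000 bp 59.3% (SD 2.84) and 51.4% (SD 3.33). The width of the H3K4me1 peaks differed as well, and its part in the lean was not tested. With all H3K4me3 peaks the median width was 909 bp within 500 bp and 653 bp at 2001 to 5000 bp. With the stronger and weaker 50% it was 1157.5 and 756.5 bp within 500 bp, and 790 and 669 bp at 1001 to 2000 bp. Acetylation moved with the distance too: 44.2% of the H3K4me1 summits with H3K4me3 within 500 bp were inside an H3K27ac peak, 50.01% at 501 to 1000 bp and 21.1% at 2001 to 5000 bp, and its part in the lean was not tested.

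Gaps of 1001 to 3000 bp allowed the same comparison at similar gap length. In the 6780 gaps with an H3K4me3 summit (median 1718.5 bp) 65.2% (64.4 to 66.0, SD 1.90) of the summits of the flanking peaks were on the gap side. In the 28162 gaps with neither summit (median 1767 bp) it was 47.1% (46.7 to 47.5, SD 1.21). The ranges over chromosomes did not overlap, at 61.9 to 68.8% and 44.5 to 49.2%. Gaps with an H3K27ac summit but no H3K4me3 summit were between them in value, at 49.7% (47.8 to 51.5, 1378 gaps). A summit on the side of a gap lies away from the gap at the other end of its peak. It was counted for each such gap, so the classes could share peaks and were not independent. Over all gaps of 5001 to 10000 bp, whatever they held, the share on the gap side was 47.3%. The flanking peaks of gaps with H3K4me3 were also wider, with a median of 946.5 bp beside 710 bp, and stronger, with a median signal value of 3.81 beside 3.41. H3K27ac covered a mean of 88.5% of the gaps with H3K4me3 and 2.08% of those with neither summit. In gaps of 1 kb or less the shares on the gap side were higher in each class: 69.3% (SD 2.69) with an H3K4me3 summit, 55.8% (SD 5.45) with an H3K27ac summit alone and 51.6% (SD 0.488) with neither. There the gaps with neither summit were shorter, with a median of 280 bp beside 653.5 bp with H3K4me3.

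**Figure D4:**
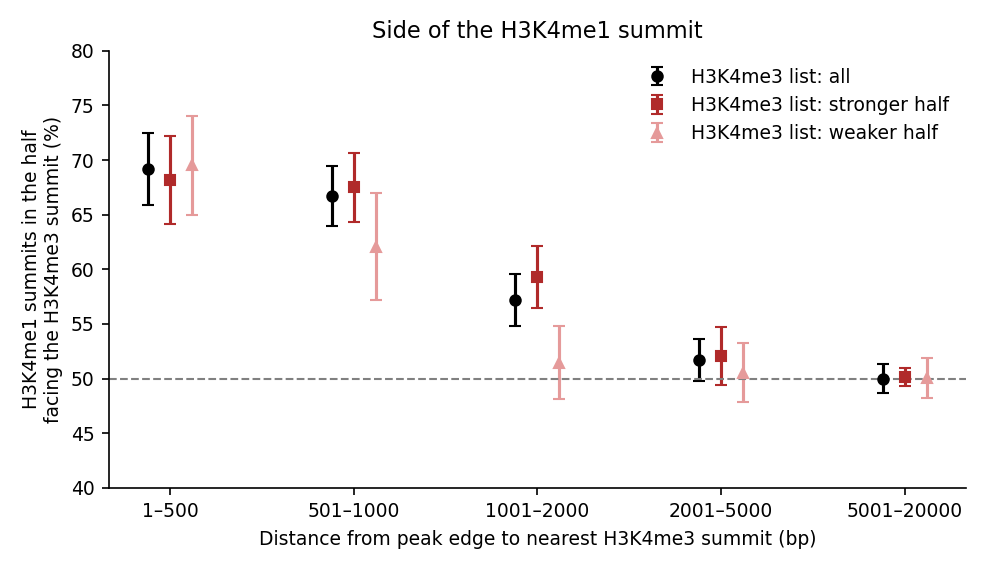
Share of H3K4me1 summits on the side of their peak that faces the nearest H3K4me3 summit, by its distance from the peak edge in bp, for all H3K4me3 peaks and for the stronger and weaker 50% by signal value. Each 50% was taken alone, without regard to summits of the other. Points are pooled shares, bars 1 SD over 23 chromosomes, and the vertical axis runs from 40 to 80%. The share falls from 69.2% within 500 bp to 49.98% at 5001 to 20000 bp.

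Joining peaks with gaps of 1 kb or less gave 71724 single peaks (39.3% of all peaks), 23976 pairs and 16005 clusters of 3 or more. The clusters of 3 or more held 62916 peaks (34.5%), with a median span of 4750 bp, of which peaks covered 82.2% in sum. Only 192 clusters held 10 or more peaks. Among the peaks with a −log10 q-value of 5 or more there were 8334 clusters of 3 or more, and among the stronger 50% by signal value 4387. The outcome also depended on the joining distance: at 500 bp 20.1% of peaks were in clusters of 3 or more, at 5000 bp 72.4% and at 10000 bp 84.0%.

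Peaks in larger clusters were more often acetylated, while their overlap with H3K4me3 changed little. Single peaks overlapped H3K27ac in 24.3% of cases (24.0 to 24.6, SD 3.46), pairs in 33.2%, clusters of 5 to 9 in 48.5% (47.8 to 49.2, SD 5.22) and clusters of 10 or more in 64.2% (62.2 to 66.2, SD 7.39). The difference between clusters of 3 or more and single peaks averaged 19.8 percentage points (SD 4.19, range 12.6 to 28.7) and was positive on 23 of 23 chromosomes. Overlap with H3K4me3 was 16.1% for single peaks, 20.6% for pairs, 19.9% in clusters of 5 to 9 and 18.5% (16.9 to 20.1) in clusters of 10 or more.

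Clustered peaks were wider and somewhat stronger, so the comparison was repeated at similar width and strength. The median width was 646 bp for single peaks and 1096 bp in clusters of 10 or more, and the median signal value 3.32 and 4.08. Among peaks of at least 400 and under 600 bp, 11.6% (11.2 to 12.1) of single peaks and 37.2% (32.6 to 42.0) of those in clusters of 10 or more overlapped H3K27ac, at median signal values of 3.02 and 2.95. Within quartiles of signal value the difference was also present. In the weakest quartile 23.2% (22.5 to 23.9) of peaks in clusters of 3 or more overlapped H3K27ac and 11.9% (11.4 to 12.4) of single peaks, at median widths of 387 and 386 bp. In the strongest quartile it was 70.6% and 50.4%, at median widths of 1956 and 1605.5 bp.

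Within clusters, inner peaks were slightly stronger than outer ones. In the 8796 clusters of exactly 3 peaks without a tie, the strongest was the middle one in 36.4% of cases (35.4 to 37.4), the first in 32.0% and the last in 31.6%. In clusters of 4 the inner places held the strongest peak in 27.5% and 26.98% of cases and the outer places in 22.2% and 23.3%. In clusters of 5 the 5 places ranged from 17.4 to 21.8%, with the highest share in place 4. The first place, an outer one, had 20.3% (18.4 to 22.3), level with the 20.4% of the middle place. By median signal value the outer places of these clusters had 3.61 and 3.55, and the inner ones 3.71 to 3.73.

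The largest clusters lay on chromosomes 7, 17, 20 and 22. On chromosome 17 from 56429988 to 56489234, 22 peaks spanned 59247 bp and covered 87.4% of it, the longest span in the list, with H3K27ac over 91.5% and H3K4me3 over 4.29%. On chromosome 7 from 100737903 to 100775155, 22 peaks spanned 37253 bp, with H3K27ac over 57.5% and H3K4me3 over 15.0%. A cluster of 20 peaks on the same chromosome, from 47477803 to 47525793, was 68.9% covered by H3K27ac. The next longest spans were 57705 bp with 12 peaks on chromosome 22 from 29282326 to 29340030, and 55352 bp with 10 peaks on chromosome 20 from 48979733 to 49035084, the latter with a highest signal value of 15.5 and H3K27ac over 46.2%. H3K4me3 covered 3.28 to 15.0% of these 5 clusters.

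**Figure D5:**
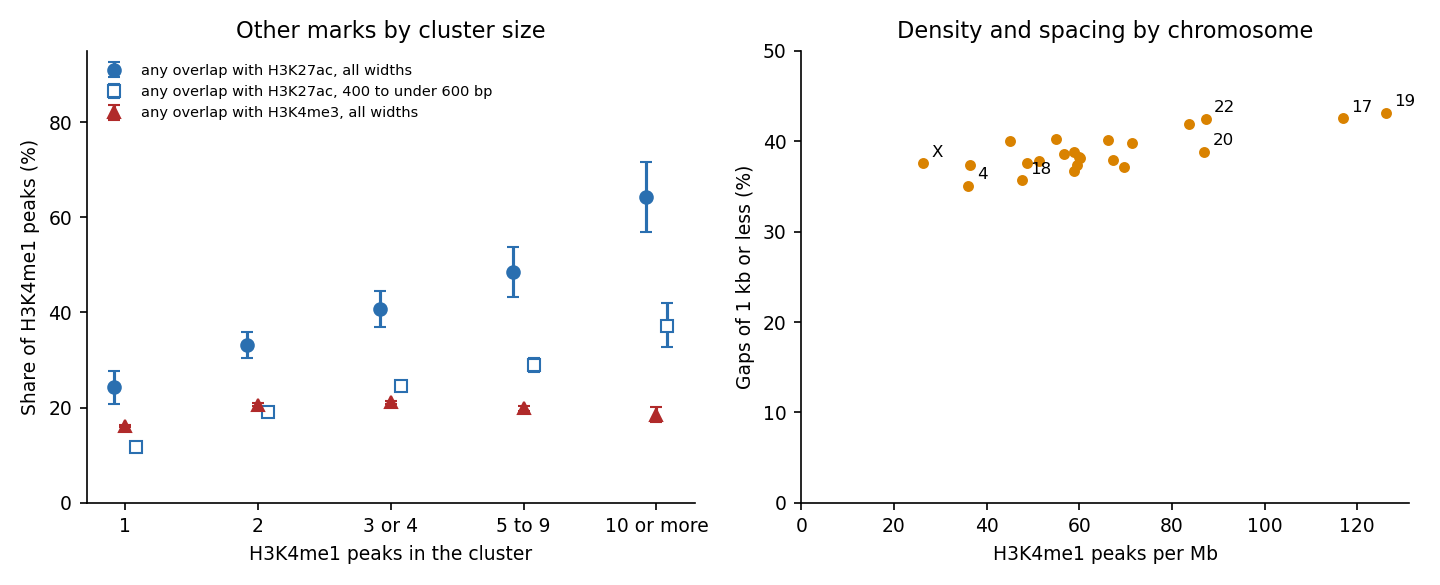
Left, share of H3K4me1 peaks that overlap H3K27ac or H3K4me3 by the number of peaks in their cluster (gaps of 1 kb or less). Bars are 1 SD over 23 chromosomes for H3K27ac at all widths and 95% Wilson intervals otherwise. Right, gaps of 1 kb or less against peaks per Mb, 1 point per chromosome, some labelled. Overlap with H3K27ac is higher in larger clusters, and the share of short gaps spans 35.1 to 43.1% while density spans 26.3 to 126.3 peaks per Mb.

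Along the genome H3K4me1 peaks were spread unevenly. Chromosome 19 had the highest density with 126.3 peaks per Mb, followed by chromosome 17 with 116.9, and X the lowest with 26.3 (mean of chromosomes 64.2, SD 23.8). By length the order at the top turned around, with 15.0% of chromosome 17 covered and 14.5% of chromosome 19, against 2.19% of X. Spacing at short range varied far less: the share of gaps of 1 kb or less was lowest on chromosome 4 (35.1%) and highest on chromosome 19 (43.1%). HepG2 is aneuploid, and more copies of a chromosome and more marking per copy cannot be told apart in these lists.

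In 3030 full windows of 1 Mb the median number of summits was 42, with quartiles of 7 and 100, and 339 windows (11.2%) had none. The 564 richest windows (18.6%) held 50% of the peaks. The variance of the counts was 59.5 times their mean. Relative to its mean, however, the H3K4me1 list was less uneven than the others, with a coefficient of variation of 0.995 beside 1.17 for H3K27ac and 1.21 for H3K4me3, which left 18.9% and 18.6% of windows empty. Neighbouring windows resembled each other (Spearman's rho 0.63). Counts of H3K4me1 followed those of H3K27ac (rho 0.97) and H3K4me3 (rho 0.92) across the 3030 windows, which share cells, mappability and copy number.

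The windows with the most H3K4me1 summits were on chromosome 19 from 45000001 to 46000000, with 277, on chromosome 1 from 8000001 to 9000000, with 272, and again on chromosome 19 from 2000001 to 3000000, with 263. They differed in H3K4me3, with 53, 25 and 66 summits, while their H3K27ac summits numbered 137, 155 and 139. By bases, 41.7% of chromosome 17 from 79000001 to 80000000 was covered, 40.6% of chromosome 9 from 139000001 to 140000000, and 39.2% of chromosome 20 from 48000001 to 49000000.

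Long stretches without H3K4me1 made up much of the genome. The 4355 gaps of 100 kb or more were 2.39% of the gaps and 1448 Mb, or 47.7% of the chromosome length, and 222 of them exceeded 1 Mb. They still held 779 H3K4me3 summits, 0.538 per Mb, and 617 H3K27ac summits. The longest was on chromosome 1 from 121348009 to 143118154 (21.8 Mb) and held 1 H3K4me3 summit. It was followed by chromosome 9 from 47180791 to 66454750 (19.3 Mb) and by chromosome 16 from 33503340 to 46588467 (13.1 Mb), both of these last with no summit of either other mark. Stretches of the genome without sequence or without unique reads were not separated from unmarked ones here.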

How the data were processed

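The data were 3 pooled peak lists, 1 per mark, from 12 ChIP-seq libraries in 4 groups of 3. MACS2 and hg19 are named in the submitters' processing notes. The aligner, version, threshold and use of the control are not given in the sources used here. Peaks passed the end of 0 of 24 hg19 chromosomes (lengths from GenomeInfoDb 1.38.1). The signal value was taken as the fold enrichment deposited by the authors, relative to what is not stated. The −log10 p-value and q-value are those deposited by the authors. The deposited score was not used. The deposited summit column gives bp from the peak start. Per-library values and depths were not analysed here.

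Peaks on chromosomes 1 to 22 and X (3036 Mb) were kept without further filter, and none overlapped within a list. Gaps, clusters, summit sides, summits of other lists in gaps, overlaps of at least 1 bp and counts per 1 Mb window were computed with Python 3.11.15, numpy 2.4.6, pandas 2.3.3 and scipy 1.17.1, and plotted with matplotlib 3.10.9. The functions were tested on simulated data. Summits at the exact centre and peaks with both neighbours equally far were left out of side shares. Signal values of different lists were not compared. The members and measures were chosen with earlier results of these data known, and width, signal and distance classes beyond those of the design were set after seeing the data. Named regions were the 3 widest peaks, the 3 clusters with most peaks and the 3 longest, the 3 windows with most peaks and with most bases, the 3 longest gaps and the chromosomes of highest and lowest density. The peak with the highest −log10 p-value was added after its value was seen. Alternatives were a stricter q-value, the stronger 50% of peaks, autosomes only, other distances, window sizes, widths and overlap rules.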

Additional observations from a re-analysis of the deposited data

Results flagged for a closer look

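Outside chromosomes 1 to 22 and X, the H3K4me1 list held 163 peaks on chromosome Y, which the comparisons above did not use. They stand out only against a count of 0, since no control values were analysed for that chromosome, and their median signal value was 3.57 and their median width 534 bp.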

How the results depend on the processing

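Of 54 alternative values over 12 results, 24 stayed within the interval, spread or band of the reported value and 30 moved beyond it. Counts of peaks and clusters had no interval or spread, so fixed bands were used, 121728 to 273888 peaks and 10670 to 24007.5 clusters. A direction could turn only for the shares toward a neighbour or an H3K4me3 summit and for the difference in H3K27ac overlap, and none turned. Peaks under 500 bp, not among the alternatives, had 49.2% toward a nearer neighbour within 1 kb. The difference in H3K27ac overlap between clustered and single peaks stayed within 1 SD over chromosomes under each of its 6 alternatives. Keeping fewer, stronger peaks moved spacing and clustering, while the share of summits in the central 33.3% of the peak stayed at 60.7% at the stricter q-value. When only the 125359 peaks at or above 5 in −log10 q-value were kept, gaps of 1 kb or less were 31.2%, clusters of 3 or more 8334, the variance to mean ratio 46.4, summits toward the nearer neighbour 56.0% and short gaps with an H3K4me3 summit 6.34%. With the stronger 50% by signal value these were 24.5%, 4387, 36.9, 57.0% and 7.01%, and 59.1% of summits lay in the central 33.3% of the peak. Fewer peaks lengthen gaps by construction. Distances of 500 and 2000 bp in place of 1000 bp gave shares of gaps of 28.0% and 51.3% and shares with an H3K4me3 summit of 1.75% and 8.05%, and 500 bp gave 10330 clusters. Windows of 100 kb gave a ratio of 11.01. Peaks of at least 500 bp gave 54.1% of summits in the central 33.3% and 55.3% toward the nearer neighbour. Counting any H3K4me3 peak in a gap of 1 kb or less gave 13.2%. Chosen after seeing the data, leaving out peaks at the narrowest width gave 38.1% of gaps, and peaks with the other neighbour over 5000 bp away gave 55.9% toward the nearer one. No paired analysis was possible because each list pools its replicates. For the same reason no replicate could be left out.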

Other observations

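Of the 1 Mb windows with at least 20 H3K4me1 summits, 13 had no H3K4me3 summit, and 1 of these, on chromosome 2 from 137000001 to 138000000 with 20 H3K4me1 summits, had no H3K27ac summit either. These windows were singled out after their values were seen. The fullest was on chromosome 8, with 139 H3K4me1 and 64 H3K27ac summits and 140.3 kb covered by H3K4me1. The next were on chromosome X from 132000001 to 133000000, with 61 H3K4me1 and 22 H3K27ac summits, and on chromosome 13 from 75000001 to 76000000, with 47 and 19. On chromosome 1 from 30000001 to 31000000 there were 36 H3K4me1 summits and 2 H3K27ac summits.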
